A study of Mus musculus with 2 samples.

Results

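GABP is an ETS-family transcription factor made of a DNA-binding subunit, GABPα, and a subunit that carries the activation domain, GABPβ. The 8 genes described here, Dnmt1, Dnmt3a, Dnmt3b, Ep300, Crebbp, Atm, Zfx and Foxo3, are known from blood stem cells as genes that GABP was reported to act on, and the question asked was whether GABPα peaks in CD4+ T cells lie at their promoters. They were taken by name. All 8 are among the 21938 protein-coding genes of the GENCODE M21 annotation, and a gene was counted as having a peak when an interval of the deposited list lay at most 1000 bp from any of its annotated starts. Peaks were found at 3 of the 8, Dnmt1, Atm and Zfx, where 17.7% of all protein-coding genes had one, a share that could not be told from that of the 8. None of these 3 peaks held CCGGAAG, the form of the ETS motif searched for here, which 57.2% of peaks at protein-coding starts held, and no start of Dnmt3a, Dnmt3b, Ep300, Crebbp or Foxo3 was nearer than 53081 bp to a peak.

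The material was CD4+ T cells of wild-type C57BL/6 mice, purified with MACS beads. Chromatin was precipitated with an antibody to GABPα (sc-22810X) in 1 library, and 1 library of input DNA, made without an antibody, was the control. The sources used here give neither the age nor the number of the mice, and no library was repeated, so no difference described below has a replicate check and no p-value is given. The deposited list holds 6782 intervals with a position and an empty score column. Neither the depth nor the height of a peak is therefore known, width is the only measure of size, and a gene with enrichment too weak for the authors' q cutoff of 0.01 would be listed in the same way as one with none. A list of positions holds no expression, so the identity of the cells could not be checked against T-cell markers, and the blood stem cells in which the 8 genes were reported as GABP targets were not part of the series.

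ETS factors bind DNA through a core of GGAA, and for GABP the bases around it are typically CC before and G after, most often at CpG-rich promoters of genes that many cell types use. The 8 genes fall into 3 groups by function. Dnmt1 copies methylation onto the new DNA strand after replication, while Dnmt3a and Dnmt3b methylate new sites. Ep300 and Crebbp encode the paralogous acetyltransferases p300 and CBP, which act on histones and transcription factors. Atm encodes a kinase that responds to DNA breaks, Zfx a zinc finger transcription factor of the X chromosome needed for stem cell self-renewal, and Foxo3 a forkhead factor that is held in the cytoplasm when PI3K signalling is active.

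The sequences below carry the comparison, because they show which bases surround each GGAA core of the 3 peaks. They are from the reference assembly GRCm38.p6, which is the build called mm10. All lines but the last are read 5′ to 3′ on the plus strand. Capitals mark a GGAA core, or TTCC where the core lies on the minus strand, and in the last line they mark a whole CCGGAAG.
Dnmt1, first core (chr9:20952835-20952862): tttcgcgcgcgcGGAAaccaattgggag
Dnmt1, second core (chr9:20952865-20952892): ggcggcgcaagcGGAAgcagcatgtacc
Dnmt1, last core (chr9:20952901-20952928): caagagagtgggGGAAgaccatgctatg
Atm, peak as far as the start of Npat (chr9:53536835-53537046): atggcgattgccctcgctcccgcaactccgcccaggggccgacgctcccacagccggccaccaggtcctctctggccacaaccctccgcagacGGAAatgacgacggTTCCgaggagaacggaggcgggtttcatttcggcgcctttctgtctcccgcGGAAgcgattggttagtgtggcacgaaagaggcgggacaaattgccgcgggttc
Atm, last core of the peak, past the start of Npat (chr9:53537047-53537074): agcacctccagtGGAAccgggagatgcg
Zfx, whole peak (chrX:94122313-94122429): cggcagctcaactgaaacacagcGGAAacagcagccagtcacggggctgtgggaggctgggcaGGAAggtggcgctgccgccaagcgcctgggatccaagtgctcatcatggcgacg
Atm, CCGGAAG outside the peak, minus strand (chr9:53536646-53536672): ctttatagagCCGGAAGcgggaaggcg

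The 3 members with a peak made up 37.5% of the 8, with a 95% Wilson interval of 13.7 to 69.4% that covers counting error only. Of all protein-coding genes, 3880 (17.7%, Wilson 17.2 to 18.2%) had a peak by the same measure. Of the 10081 protein-coding genes with a CpG-rich 5′ end, 3219 (31.9%) had one. CpG-rich means here that the observed over the expected number of CpG dinucleotides in 1000 bp around the 5′ end was at least 0.6. Both backgrounds lie inside the interval of the 8 genes, so at this number of genes the share among them could not be told from that of protein-coding genes in general. Within 50 kb of the gene body, 4 of the 8 genes had a peak, against 49% of all protein-coding genes. These were the 3 above and Dnmt3a. The count of 3 depends on the internal starts: 1 of the 8 genes (Atm) had a peak at the gene 5′ end, against 16.4% of protein-coding genes. Likewise, 1 (Dnmt1) had a peak that covered a start of its own, against 13.9%. Under both settings the share of the 8 was below the background instead of above it. The Wilson interval of 1 of 8 was 2.24 to 47.1% and held both backgrounds, so here too the shares could not be told apart.

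At Dnmt1 (ENSMUSG00000004099.16, chromosome 9, 20907209 to 20959888, minus strand), the peak covered the start of a protein-coding transcript. It spanned chr9:20952799-20952987, 189 bp in all, from 8 bp upstream to 180 bp downstream of the start of Dnmt1-201. It also covered the start of the noncoding transcript Dnmt1-205 and ended 176 bp before the start of Dnmt1-203. The 5′ end of the gene is set by another transcript and lay 6901 bp upstream of the peak. Dnmt1 is known for alternative first exons, one of them used in oocytes, so which start is taken as the promoter decides whether the gene counts. The surroundings of the outer 5′ end were CpG-poor, with an observed over expected ratio of 0.0588, and the highest ratio around any Dnmt1 start was 0.621. The 3 GGAA cores of the peak lay 66, 102 and 132 bp downstream of the start of Dnmt1-201, all on the strand opposite to the gene. The second, 16 bp from the midpoint, was the closest to the full motif, with 6 of the 7 bases of CCGGAAG. The nearest CCGGAAG was 461 bp outside the peak. Past the 3′ end of Dnmt1 stood peaks at the starts of Eif3g (199 bp wide) and Ppan (270 bp wide), 61166 and 71517 bp from the 5′ end of Dnmt1, and these held 1 and 2 copies of CCGGAAG.

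At Atm (ENSMUSG00000034218.16, chromosome 9, 53439149 to 53536740, minus strand), the peak was upstream and overlapped the start of a divergent neighbour. It spanned chr9:53536835-53537082, 248 bp, the widest of the 3. Its near edge was 95 bp upstream of the start of Atm-206, which is also the outermost one in GENCODE M21. RefSeq transcripts of Atm start nearer, the closest at 7 bp. The peak overlapped the start of Npat (ENSMUSG00000033054.7, 53537047 to 53574342, plus strand), whose product is a coactivator of histone gene transcription at the entry to S phase. The GENCODE M21 starts of Atm and Npat were 307 bp apart, and a peak in a list cannot be assigned to either gene. The 4 GGAA cores lay 119, 102 and 54 bp upstream and 12 bp downstream of the Npat start, with 3 on the plus and 1 on the minus strand. The core 54 bp upstream matched 6 of the 7 bases of CCGGAAG. A full CCGGAAG was present in an annotated exon of Atm, 11 bp downstream of the start of Atm-204, but it was 173 bp outside the peak.

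At Zfx (ENSMUSG00000079509.10, chromosome X, 94074631 to 94123702, minus strand), the peak was the narrowest of the 3 and lay inside the gene. It spanned chrX:94122313-94122429, 117 bp. It overlapped no annotated exon and began 471 bp downstream of the nearest start, that of Zfx-203, and 1273 bp from the 5′ end of the gene. A RefSeq transcript starts nearer, at 220 bp. Of the 3459 peaks within 1000 bp of a protein-coding start, 80.2% covered a start and 97 (2.80%) were at least as far from one as the Zfx peak. Its 2 GGAA cores were 524 and 564 bp downstream of the start of Zfx-203. The former, 5 bp from the midpoint, matched 6 of the 7 bases of CCGGAAG. In the reference, 17.1% of the bases of the peak were soft-masked as repeats, against 0% at Dnmt1 and Atm. Of its 82 possible sequences of 36 bases, the length of the reads, 71 occurred once in the genome on either strand. In the peaks of Dnmt1 and Atm, each of the 154 and 213 such sequences occurred once.

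**Figure D1:**
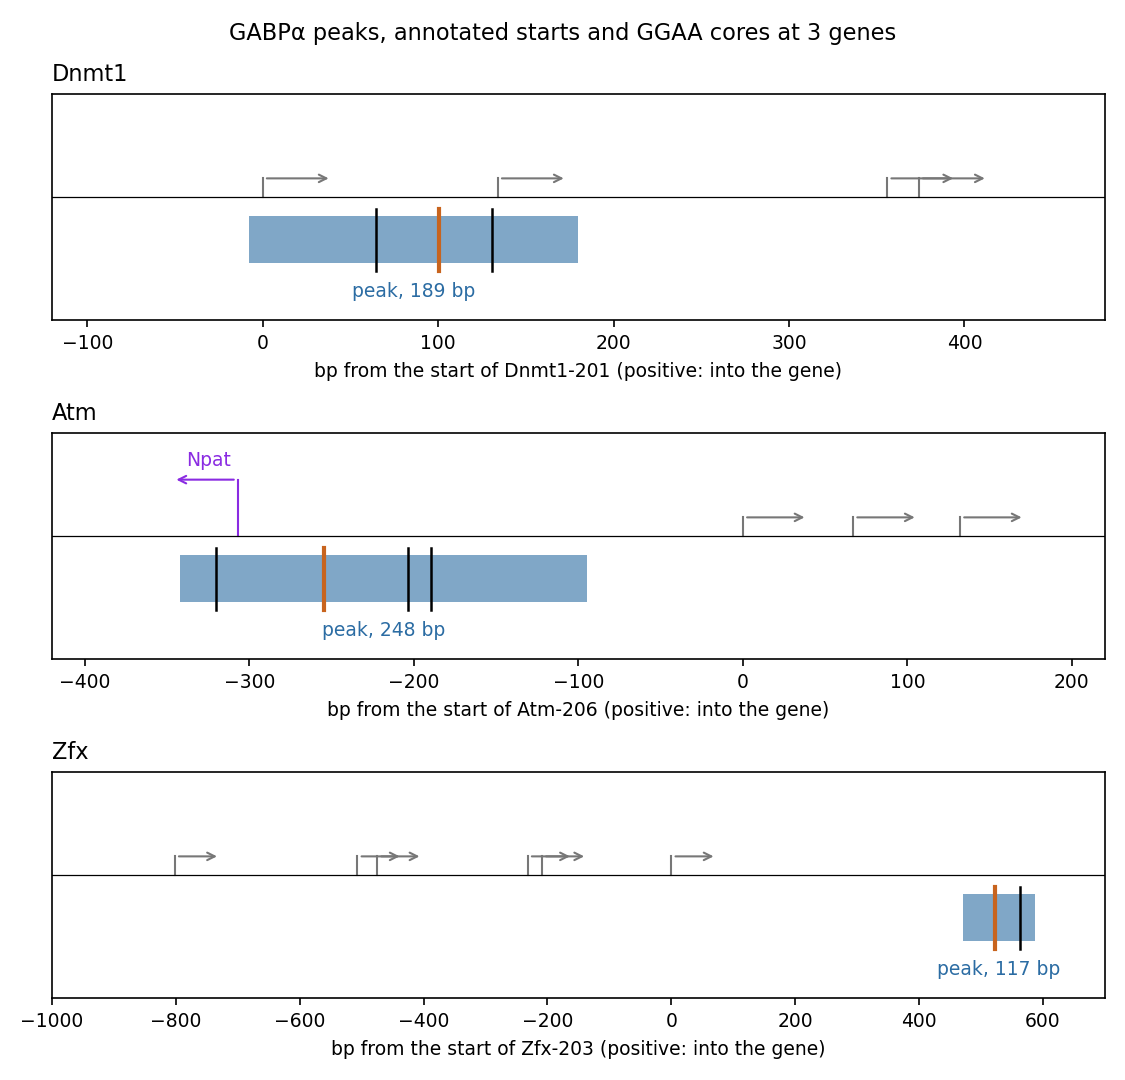
Each panel shows a peak (blue box), the annotated transcript starts (arrows, with the divergent Npat in purple) and the GGAA cores (vertical lines, orange where 6 of the 7 bases of CCGGAAG match), against the distance in bp from the start of the transcript named on the axis. The peak covers a start of its own gene only at Dnmt1, covers that of Npat at Atm, and lies 471 bp downstream of the nearest start at Zfx.

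The 3 peaks differed in width, and each held the number of GGAA cores that is the median for its width. Peaks at protein-coding starts had a median width of 210 bp with quartiles of 159 and 267 bp. The peak at Atm (248 bp) was wider than the median, at percentile 68.4 of these peaks. The peak at Dnmt1 (189 bp) was at percentile 38.5, and that at Zfx (117 bp) was below the lower quartile at percentile 7.69. Against peaks at protein-coding starts whose width was within 10% of their own, the members' number of cores and the median were both 3 at Dnmt1 (642 such peaks), both 4 at Atm (724) and both 2 at Zfx (328). The GC content was 63.0% at Dnmt1, 65.3% at Atm and 65.0% at Zfx, beside a median of 64.3% for peaks at protein-coding starts.

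**Figure D2:**
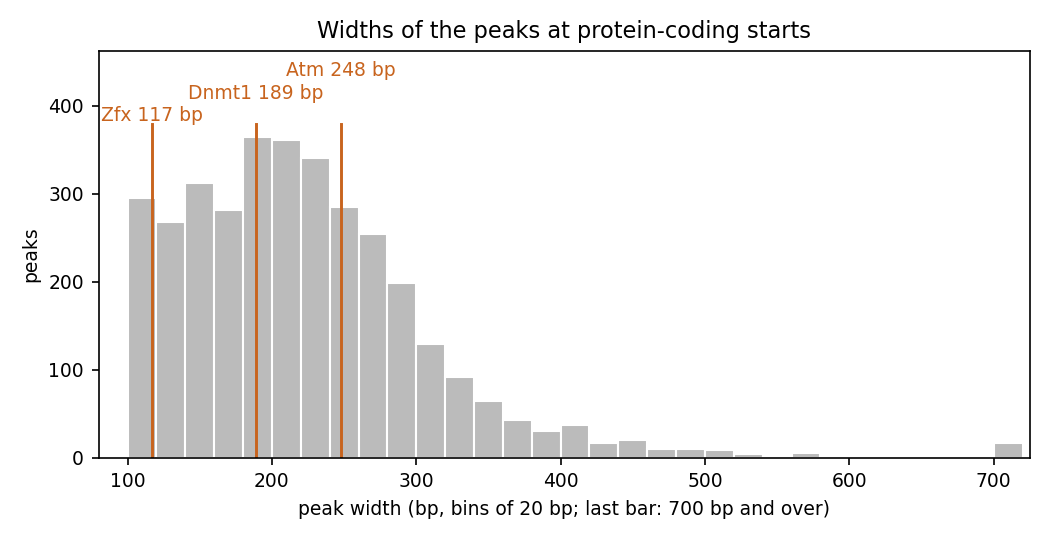
The bars count the peaks within 1000 bp of a protein-coding start by width in bp, and the orange lines mark the peaks of the 3 members. Zfx (117 bp) sits at the narrow edge, Dnmt1 (189 bp) just under the median of 210 bp and Atm (248 bp) above it.

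The full motif, common in peaks at promoters, was absent from the members' peaks. CCGGAAG, searched on both strands, was in 0 of the 3, while 1979 of the 3459 peaks at protein-coding starts (57.2%, Wilson 55.6 to 58.9%) held it. Because wider peaks held the motif more often, each peak was set beside peaks of like width. The share with CCGGAAG was 52.6% (Wilson 48.8 to 56.5%) at the width of Dnmt1, 68.2% (64.8 to 71.5%) at that of Atm and the lowest, 118 of 328 peaks (31.0 to 41.3%), at that of Zfx. With 3 peaks this is a description and not a difference that was tested. Without the last base, CCGGAA was also in 0 of the 3, against 70.9% of peaks at protein-coding starts. Without the first base, CGGAAG was at Dnmt1 and Atm, against 76.6%. CGGAA was in all 3 peaks, against 90.6%, and GGAA in all 3, against 98.8%.

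The base in place of the first C was G at both Dnmt1 and Atm. The 8 bases GCGGAAGC, which stand around the second Dnmt1 core and around the Atm core 54 bp upstream of the Npat start, were in 283 of the peaks at protein-coding starts (8.18%) and within 250 bp of the starts of 1155 protein-coding genes (5.26%). The 7 bases GCGGAAG were in 27.9% of the peaks. GCGGAAGC, GCGGAAG and CGGAA were chosen after the sequences of the members had been seen. At the Zfx core nearest the midpoint the word is CAGGAAG.

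A full motif near a start and a peak there did not always go together. Within 250 bp of any annotated start, CCGGAAG was present at 2 of the 8 genes, Dnmt3a and Atm, against 21.3% of protein-coding genes. Dnmt3a held it 3 times, at 62 and 83 bp downstream of the start of Dnmt3a-215 and 211 bp upstream of that of Dnmt3a-213, and had no peak there. Both are internal starts, far from the gene 5′ end, and no RefSeq transcript of Dnmt3a starts at either. Dnmt3a-215 is annotated as a target of nonsense-mediated decay, so these 3 copies do not mark an established promoter. CGGAAG was near the starts of 5 of the 8 genes, against 41.0% of protein-coding genes, and CGGAA near those of all 8, against 62.3%. The 8 genes have between 5 and 18 annotated starts each, and genes with more starts have more sequence searched.

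Among the DNA methyltransferases without a peak, Dnmt3a (ENSMUSG00000020661.15, chromosome 12, 3806007 to 3914443, plus strand) had the nearest one. It was 53081 bp from the closest annotated start and 153890 bp from the 5′ end of the gene, at chr12:3959897-3960143. This interval of 247 bp lay in a coding exon of Pomc, the precursor of several pituitary peptide hormones, with no annotated start within 1000 bp, and it held CCGGAAG. For Dnmt3b (ENSMUSG00000027478.15, chromosome 2, 153649450 to 153687730, plus strand), the nearest peak was 72165 bp away. It spanned chr2:153741535-153741687 over the start of Mapre1, which encodes the microtubule end-binding protein EB1. It was 153 bp wide and held CCGGAAG. The maintenance enzyme gene Dnmt1 thus had a peak and neither de novo enzyme gene did.

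Neither acetyltransferase gene had a peak, and their nearest peaks were at similar distances. For Ep300 (ENSMUSG00000055024.12, chromosome 15, 81585351 to 81652077, plus strand), it was 85108 bp away at chr15:81729958-81730229, over the start of Rangap1, which activates the GTPase Ran in nuclear transport. That peak, 272 bp wide, held CGGAAG but no CCGGAAG. For Crebbp (ENSMUSG00000022521.10, chromosome 16, 4081328 to 4213997, minus strand), it was 84608 bp away at chr16:4003799-4003987, 29 bp from the start of Slx4, a scaffold of DNA repair nucleases. That peak, 189 bp wide, held CCGGAAG.

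Of the 3 stem-cell maintenance genes, Foxo3 (ENSMUSG00000048756.11, chromosome 10, 42181841 to 42276755, minus strand) had no peak. The nearest was 201704 bp upstream at chr10:42478459-42478591, 133 bp wide, with CCGGAAG, and covered the start of the mitochondrial ATPase gene Afg1l. No peak lay in the body of any of these 5 genes. The 18058 protein-coding genes without a peak had a median distance of 91699 bp to the nearest one, with quartiles of 34536 and 215406 bp. The 5 genes lay between percentiles 35.2 (Dnmt3a) and 73.3 (Foxo3) of that distribution, inside its quartiles. Each of the 36-base sequences of the 5 nearest peaks occurred once in the genome.

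**Figure D3:**
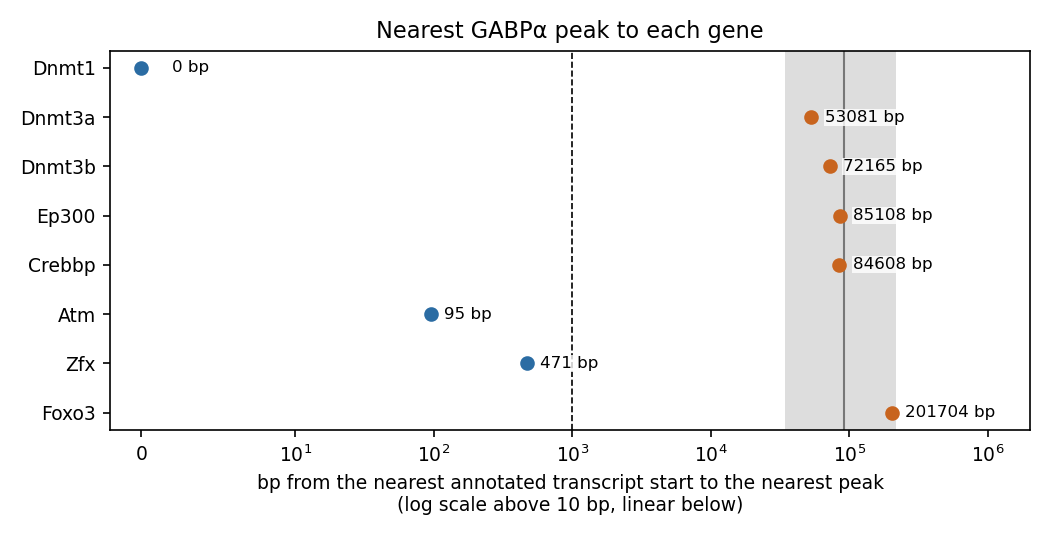
Points give the distance in bp, on a log scale above 10 bp, from the nearest annotated start of each gene to the nearest peak, in blue where it is at most 1000 bp (dashed line). The grey band and line are the quartiles and the median of all protein-coding genes without a peak, and the 5 members without one, from 53081 to 201704 bp, fall inside the band.

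No member lay near the limit of 1000 bp. The farthest inside was Zfx at 471 bp and the nearest outside Dnmt3a at 53081 bp. CpG content did not separate the 2 groups either. The ratio at the gene 5′ end was 0.6 or more at 6 of the 8, against 46.0% of all protein-coding genes. Of these, Atm (0.918) and Zfx (0.928) had a peak. Dnmt3b (0.831), Ep300 (0.733), Crebbp (the highest of the 8) and Foxo3 (0.828) had none. At Dnmt3a it was 0.435 at the 5′ end and reached 0.991 around another start. Dnmt1 likewise reached 0.621 at another start, so each of the 8 had at least 1 start with a ratio of 0.6 or more. Among all protein-coding genes with a peak, 284 of 3880 (7.32%) had none within 1000 bp of the gene 5′ end but only near other starts. Dnmt1 and Zfx were both of this kind.

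Genes that work with the members were read from 5 lists, together 83 genes, none of them a member. Of these, 23 (27.7%, Wilson 19.2 to 38.2%) had a peak, and 12 of the 23 peaks held CCGGAAG, where 57.2% of all peaks at protein-coding starts did. The counts of CCGGAAG in each list below stand beside the same 57.2%, and differences between lists were not tested. The counts of CpG-rich 5′ ends stand beside 46.0% of all protein-coding genes. The members and the lists had been chosen with earlier results of these data known, so these shares describe the lists and are set beside the 17.7% of all protein-coding genes without a test.

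Of the 20 genes listed here under DNA methylation, 12 had a CpG-rich 5′ end and 8 had a peak (40%, Wilson 21.9 to 61.3%). These were Uhrf1, the partner that brings Dnmt1 to hemimethylated DNA, Trdmt1, the methyl-CpG binding genes Mbd1, Mbd2, Mbd4 and Zbtb33, the glycosylase gene Tdg, and Dmap1, a Dnmt1-associated protein. CCGGAAG was in the peaks of Zbtb33 and Dmap1 only. The peak of Uhrf1 was 189 bp wide, covered a transcript start, lay 860 bp from the gene 5′ end at its near edge and held 4 GGAA cores and neither CGGAAG nor CCGGAAG. Its width was the same as that of the peak at Dnmt1. Dmap1 had the widest peak of the list at 328 bp, with 6 cores, and Mbd2 the narrowest with no GGAA. The Tet genes Tet1, Tet2 and Tet3, whose products oxidise methylcytosine, had their nearest peaks 47692 bp (Tet3) or more away.

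Of 15 other lysine acetyltransferase genes, 8 had a peak (53.3%, Wilson 30.1 to 75.2%), and 11 had a CpG-rich 5′ end. In 6 of the genes with a peak, Kat5, Kat7, Kat8, Hat1, Taf1 and Gtf3c4, it held CCGGAAG, and in Kat6b and Ncoa2 it did not. The peaks of Kat6b and Ncoa2 were 19076 and 1487 bp from the gene 5′ end, and 172 and 13 bp from another start. The widest was at Kat5, which encodes the TIP60 enzyme, at 287 bp with 6 cores, and the narrowest at Gtf3c4, 281 bp from its start. The other 7, Kat2a, Kat2b, Kat6a, Ncoa1, Ncoa3, Clock and Elp3, had none, as was the case for Ep300 and Crebbp.

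Of 16 kinases related to Atm and their partners in the response to DNA damage, 4 had a peak (25%, Wilson 10.2 to 49.5%), and 15 had a CpG-rich 5′ end, for which the share among protein-coding genes was 31.9%. Mtor, a kinase of the same family, had the widest at 239 bp, 135 bp from its start and with CCGGAAG. The sensors of DNA breaks that activate Atm were split. Nbn had a peak of 195 bp with 2 copies of CCGGAAG, and Mre11a had the narrowest of the list, 186 bp, with CGGAAG but no CCGGAAG. Rad50, the other subunit of that complex, had its nearest peak at 4502 bp. Tti1, which helps to fold these kinases, had a peak of 190 bp without CGGAAG, and Atr and Prkdc, the kinases closest to Atm in function, had their nearest peaks 314342 and 43234 bp away.

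No peak was found at the 6 relatives of Foxo3 and Zfx, namely Foxo1, Foxo4, Foxo6, Zfy1, Zfy2 and Zfp711 (0 of 6, Wilson upper bound 39.0%), of which 5 had a CpG-rich 5′ end. The nearest was 3009 bp from Zfp711. Of 26 regulators of blood stem cells, 3 had a peak (11.5%, Wilson upper bound 29.0%), and 17 had a CpG-rich 5′ end. These were the survival genes Mcl1, with the widest peak of 285 bp, 10 cores and CCGGAAG, and Bcl2l1, with CCGGAAG, and the chromatin remodeller gene Smarca4, with the narrowest peak of 181 bp and no CCGGAAG. The other 23, among them Runx1, Gata2, Tal1, Meis1 and Kit, had their nearest peaks between 8022 bp (Erg) and 491397 bp (Kit) from a start. Whether blood stem cells carry peaks at any of these genes cannot be read from T cells.

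**Figure D4:**
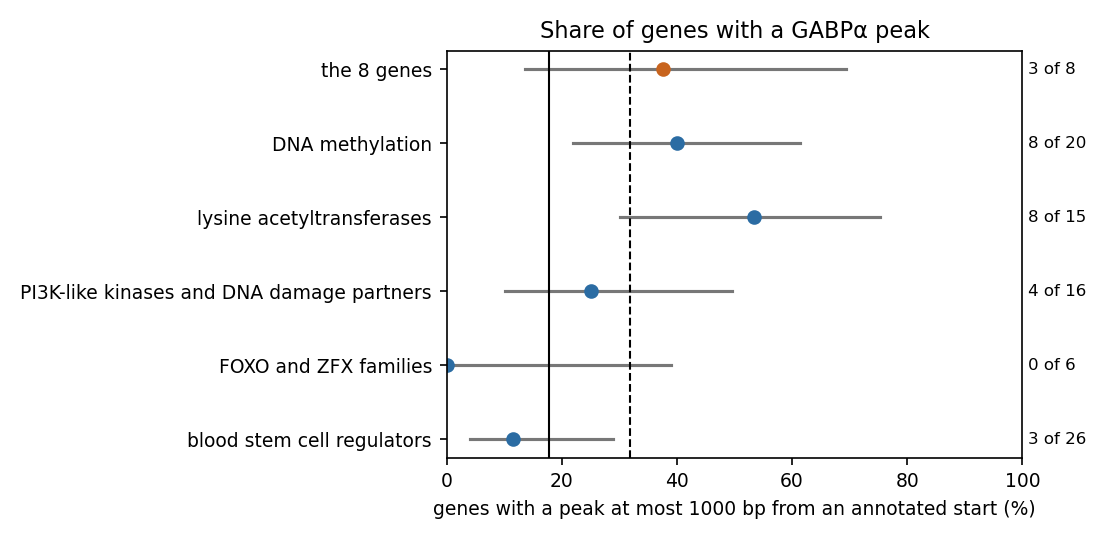
Points give the percentage of genes with a peak at most 1000 bp from an annotated start, for the 8 members (orange) and the 5 lists (blue), with 95% Wilson intervals as bars and the counts at the right. The solid line is the 17.7% of all protein-coding genes and the dashed line the 31.9% of those with a CpG-rich 5′ end, and both cross the bar of the 8 members.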

How the data were processed

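Reads of 36 bases were trimmed (Trimmomatic) and mapped to mm10 (Bowtie) by the authors, who called peaks over the input with MACS2 at q 0.01 (tools and build also per the submitters' processing notes, versions not given in the sources used here). The deposited file holds positions of intervals and no count, height or q value, so the depth is unknown. Starts were taken as 0-based and are given 1-based on GRCm38.p6, whose chromosome lengths hold every interval. Distances run from the edge of a peak to the starts of GENCODE M21 transcripts. Motifs were exact words on both strands. Scripts (Python 3.11.15, numpy 2.4.6, numba 0.67.0) were tested on simulated peaks, motifs and repeats. All 8 members were named, with any gene starting within 1000 bp of a member's peak or at its nearest peak, and list genes with a peak. The members and lists were chosen with earlier results of these data known. Intervals are 95% Wilson intervals and cover counting error only. Positions of the input were not used here, and the array data and the tables of the paper were not analysed here.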

Additional observations from a re-analysis of the deposited data

How the results depend on the processing

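The number of members with a peak was 3, the same genes, at 500, 2500 and 5000 bp, from peak midpoints, with protein-coding or basic transcripts only, without peaks mostly soft-masked, and with RefSeq starts (chosen after seeing the data). It was 2 (Dnmt1 and Atm) among peaks of at least the median width of 157 bp. It fell to 1 where the peak had to cover a start (Dnmt1) and to 1 at the gene 5′ end alone (Atm). The share of all protein-coding genes was 18.4% at 2500 bp, 19.9% at 5000 bp, 13.9% where the peak had to cover a start, 16.4% at the gene 5′ end and 14% with peaks of at least the median width. Member peaks with the motif numbered 2 for CGGAAG and 3 for GGAA, in place of 0, and stayed at 0 for CCGGAA and with peaks widened to 200 bp. Members with the motif near a start numbered 5 for CGGAAG, against 41% of all protein-coding genes, and 8 for GGAA, against 99.8%. They numbered 5 for CCGGAAG within 1000 bp, against 33.3%, in place of 2, against 21.3%. The list genes with a peak ranged from 16 to 25 of 83, and the median width of the member peaks was 189 bp at 500 and 2500 bp and with the widest peak of each gene, the settings run for it. No paired analysis was possible because the groups are 1 ChIP and 1 input library and no result comes from a test. No setting that leaves out a library could be run, as only 1 has peaks. A shallow library limits which weaker sites pass the cutoff, and its depth is unknown.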
